A study of Mus musculus with 12 samples.

Results

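Prostaglandins are short-lived lipid signals that cells make from arachidonic acid. Phospholipases free the acid from membranes, the cyclooxygenases Ptgs1 and Ptgs2 turn it into an unstable endoperoxide, and terminal synthases such as Ptges and Ptges2 convert that into prostaglandin E2 (PGE2), which acts on receptors such as Ptger4. The signal ends inside cells: the transporter Slco2a1 takes prostaglandins up, the dehydrogenase Hpgd oxidises them to inactive keto forms, and the reductases Ptgr1 and Ptgr2 reduce these further. In the gut, PGE2 is known as a signal from the tissue around the crypt that acts on the epithelium.

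These 9 genes, of 47729 in the gene table, are described here. They were chosen by name as a pathway set around Hpgd, and the choice was made on measured values, since the stress and corticosterone comparisons of these same libraries were already known. For these genes both comparisons, and whether a gene was called in them, are therefore given as description, with no p-value printed and nothing read from a call. The comparison of vehicle with Ctrl is tested.

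RNA-seq was made from intestinal stem cells (ISCs) of the mouse small intestine in 12 libraries, 3 in each of 4 groups. All mice carried Lgr5-EGFP-IRES-CreERT2, an allele that puts EGFP and an inducible Cre recombinase under the control of the stem cell gene Lgr5, and cells were sorted as live, EpCAM-positive, CD24-negative and brightest for EGFP, without CD31, CD45 and TER119. Ctrl mice were labelled as controls and had no injection named. Stress mice (titled CRS and labelled restraint stress) were held in a restrainer for 3 h on 1 day, and control mice of that procedure likewise went without food and water. CORT mice were given corticosterone, the main glucocorticoid of mice, as a single intraperitoneal injection of 5 mg per kg, and vehicle mice were given the sulfobutylether-β-cyclodextrin solution alone. Mice were 8 to 10 weeks old and of both sexes, and the sex behind each library is not given. Stress libraries are numbered 1+2, 3 and 4+5+6, and the joined numbers are read as pooled mice. The study's methods state at least 3 independent biological samples for each group, and its RNA-seq legend gives n = 3. The sample labels hold only replicate numbers and do not name the animals behind a library. A test therefore measures only the spread between these libraries.

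Total counts were 15934907 to 31280267 in the Ctrl, stress and vehicle libraries and 29426183 to 69533214 in the CORT libraries. CORT 2 and CORT 4 were deeper than any library of the other groups, and CORT 5 was shallower than vehicle 6, at 31280267. The summed level of 6 ISC markers was 10680 to 13940 CPM (counts scaled to a common library total by edgeR's TMM method) in all 12 libraries. Olfm4 was the highest of them in every library. The median of the 6 was 551.1 to 607.4 CPM for Ctrl and 494 to 525.6 for stress. It was 525.6 to 584.1 CPM for vehicle and 433.9 to 517.5 for CORT. The summed level of 6 enterocyte markers ran from 82 to 103.7 CPM for Ctrl and from 243.2 to 1492 for stress. It ran from 67.03 to 119.2 CPM for vehicle and from 29.54 to 84.44 for CORT. Tuft cell markers, a type known to make prostaglandins and to carry CD24, summed to 4.139 to 13.84 CPM. Of these, 1 of the 3 that could be tested was called lower in CORT, against 4.5% of all genes tested. The level of 6 blood markers summed to 0 to 1.328 CPM with at least 4 of 6 at 0 in every library. Stromal and endothelial markers summed to 0 to 3.235 CPM. Only 1 of the 6 could be tested in CORT. It was called higher, with a log2 fold change of 2.125, against 3.64% of all genes tested. None of the 6 had enough counts to be tested in stress or in vehicle relative to Ctrl, and nothing is read from this call.

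The promoter of Hpgd is shown because Hpgd carries the largest differences of the set. Hpgd (ENSMUSG00000031613) lies on the plus strand at chr8:56294552-56321046 (mm10), and no other gene of the table overlaps it. In the GENCODE vM21 annotation it has 1 protein-coding transcript of 7 exons and 1683 bases. The 250 bases before its start, at chr8:56294302-56294551 on the plus strand, were read from the RefSeq promoter table (GRCm38.p6, the same build), in which 9 of the 9 genes were found. Capitals mark the first stretch with the closest match to the palindromic glucocorticoid response element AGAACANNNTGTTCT, searched as written, which reads alike on both strands.

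Hpgd promoter: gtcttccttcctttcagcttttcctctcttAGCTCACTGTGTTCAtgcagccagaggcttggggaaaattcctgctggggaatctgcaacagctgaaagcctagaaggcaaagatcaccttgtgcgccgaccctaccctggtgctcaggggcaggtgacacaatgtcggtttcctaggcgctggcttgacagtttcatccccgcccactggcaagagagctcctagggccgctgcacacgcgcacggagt

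This stretch matches 9 of the 12 fixed letters of the element and begins 220 bases before the start. Of 32851 promoter windows (250 bases before to 50 after a start), 14.5% held a match of 9 or more letters, and 0.00913% held the whole element. Neither TGTTCT nor AGAACA, the arms of the element, is in the Hpgd window, while 19% of all windows held at least 1. The receptor gene Ptger4 had the closest match of the set, with 10 of 12 letters from 13 bases before its start, a closeness that 1.84% of windows reached or passed; it is shown because Ptger4 is the member lowest in CORT relative to vehicle.

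Ptger4 promoter, chr15:5244186-5244200, minus strand: AGAAAAGTTTGTTCA

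A match of letters is a description of the sequence and does not show that the receptor binds there.

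Hpgd, which catalyses the first step of prostaglandin inactivation, was higher in stress and higher still in CORT. Its level was 42.4, 45.22 and 40.18 CPM in Ctrl 1, 2 and 3, and 118, 106.1 and 131.4 CPM in stress 1+2, 3 and 4+5+6. It was 41.01, 37.36 and 37.74 CPM in vehicle 3, 5 and 6, and 370.2, 343.1 and 284.7 CPM in CORT 2, 4 and 5. The lowest stress library was above the highest Ctrl library, the lowest CORT library was above every other library, and the Ctrl and vehicle groups overlapped. The group means were 42.6 ± 2.52 CPM for Ctrl against 118.5 ± 12.7 for stress, and 38.7 ± 2.01 for vehicle against 332.7 ± 43.7 for CORT (SD, n = 3).

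**Figure D1:**
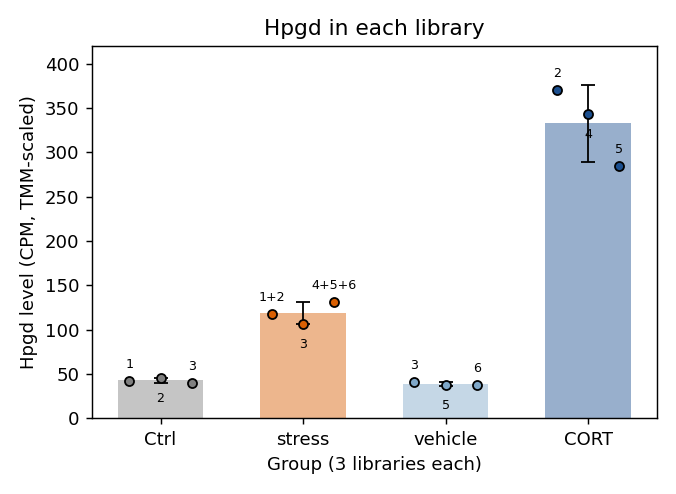
Hpgd in each library, in CPM scaled by TMM (vertical axis from 0), for the 4 groups; bars are means, error bars are SD over 3 libraries, and points are libraries labelled with their replicate number. Ctrl and vehicle libraries lie between 37.36 and 45.22 CPM, stress libraries between 106.1 and 131.4 CPM and CORT libraries between 284.7 and 370.2 CPM.

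The log2 fold change of Hpgd was 1.48 with a standard error (SE) of 0.10 in stress relative to Ctrl, or 2.78-fold. It was 3.10 with an SE of 0.11 in CORT relative to vehicle, or 8.58-fold. The stress response minus the CORT response was -1.63 on the log2 scale with an SE of 0.15, and it lay between -1.73 and -1.55 when any 1 of the 12 libraries was left out. Vehicle and Ctrl did not differ detectably in Hpgd, with a log2 fold change of -0.13, an SE of 0.10 and an adjusted p of 0.71 (edgeR).

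Of the 9 genes, 6 had enough counts to be tested in each comparison, and by edgeR at an adjusted p under 0.05 Hpgd was the one called higher in stress (1 of 6) and in CORT (1 of 6). Among all genes tested, edgeR called 1.3% higher and 0.59% lower in stress, and 3.64% higher and 4.5% lower in CORT. DESeq2 called 1 member higher in stress and 2 in CORT (Hpgd and Ptgr1). The shares are those of edgeR, and none is given for DESeq2. No member was called lower in either by edgeR, and DESeq2 called 0 in stress and 1 in CORT (Ptger4). At an unadjusted p under 0.05 by edgeR, 2 were higher and 0 lower in stress, and 2 higher and 1 lower in CORT. Over all genes tested in stress, an edgeR p of 0.0503 stood at place 2090 of 13722, in either direction. In CORT a p of 0.0459 stood at place 3297 of 14656. Since the members were selected on these comparisons, nothing is read from the counts. The median log2 fold change over the 6 was 0.01 in stress and -0.02 in CORT, against -0.0028 and 0.01 over all genes tested.

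Enterocyte markers moved with stress. All 6 of 6 were higher in stress than in Ctrl (edgeR, adjusted p under 0.05), against 1.3% of all genes tested. Their summed level followed the order of Hpgd, with 243.2 CPM in stress 3, 693.8 CPM in stress 1+2 and 1492 CPM in stress 4+5+6. Their part in the Hpgd difference was not tested. Without stress 4+5+6, the log2 fold change of Hpgd in stress was 1.40. In CORT none of the 6 enterocyte markers was called higher, with a median log2 fold change of -0.14. In vehicle relative to Ctrl, 1 of the 6 was called higher, against 0.447% of all genes tested, with a median of -0.64 over the 6. In a bulk sample such as these, more cells of a type and more RNA per cell cannot be told apart.

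Within CORT, Hpgd was highest in the deepest library (CORT 2) and lowest in the shallowest (CORT 5). With every library thinned to the smallest total count, the log2 fold change of Hpgd in CORT was 3.10, as without thinning. Thinning keeps each gene's expected share of its library, so the fold of a well-counted gene was bound to stay near this value. Whether anything else that goes with depth played a part was not tested. Of the 6 ISC markers, 3 were called lower in CORT and 1 in stress, against 4.5% and 0.59% of all genes tested.

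Per transcript length, as FPKM, the count scaled by length and by depth, Hpgd passed the other members of the set. In Ctrl, Ptgr1 was the highest at 53.8 ± 2.03 FPKM, followed by Hpgd at 22.3 ± 1.02 and Ptgr2 at 20.5 FPKM, whose ranges of 21.37 to 23.38 and 20.33 to 20.69 did not overlap. In vehicle, Hpgd at 20.5 ± 1.01 FPKM and Ptgr2 at 22.5 FPKM overlapped. In stress, Hpgd at 61.7 ± 8.53 FPKM was above Ptgr1, whose highest stress library was at 50.23 FPKM against a lowest of 53.5 FPKM for Hpgd. In CORT, Hpgd reached 167.2 ± 25.4 FPKM, against 51.5 ± 2.14 FPKM for Ptgr1. Among all genes of a library ordered by FPKM from the top, Hpgd stood between places 3329 and 3688 for Ctrl and 1024 and 1363 for stress, and between 3627 and 3992 for vehicle and 347 and 438 for CORT. Ptges2, Ptger4 and Slco2a1 followed in that order in every group, with libraries of neighbouring genes not overlapping.

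**Figure D2:**
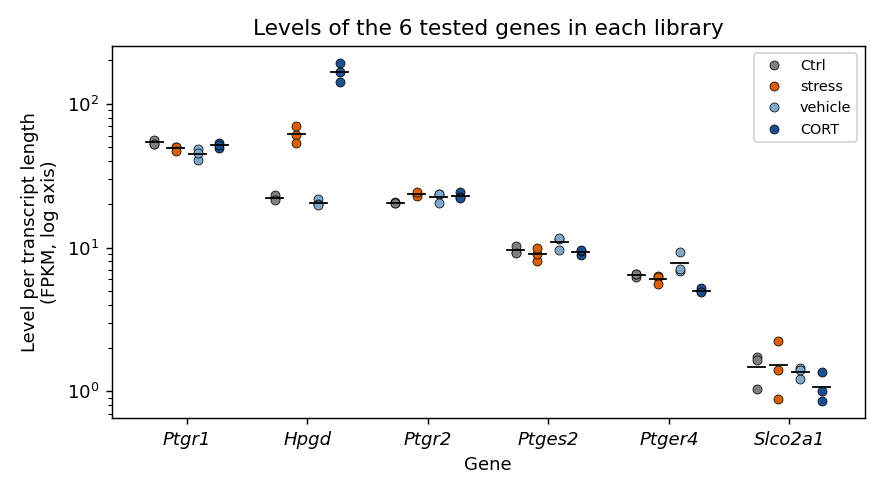
Levels of the 6 tested genes per transcript length, in FPKM on a log axis; each point is a library, colours are the 4 groups, and black lines are means over 3 libraries. Hpgd moves from below Ptgr1 in Ctrl (22.3 against 53.8 FPKM) to above it in CORT (167.2 against 51.5 FPKM), while the other 5 genes keep their order in all 4 groups.

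Ptgr1, the reductase of the next inactivation step, also acts on leukotriene B4. It stood at 134.7, 144.9 and 132.7 CPM in the Ctrl libraries and 129.6, 132.8 and 116.6 in the stress libraries, against 102.8, 120 and 115.2 in the vehicle libraries and 137.8, 135.1 and 137.8 in the CORT libraries. All CORT libraries were above all vehicle libraries, and all vehicle libraries were below all Ctrl libraries, so that CORT (136.9 ± 1.55 CPM) and Ctrl (137.4 ± 6.53 CPM, SD, n = 3) were close in level. The log2 fold change was 0.28 with an SE of 0.08 in CORT relative to vehicle, and -0.12 with an SE of 0.09 in stress relative to Ctrl. Neither was called by edgeR, while DESeq2 called the difference in CORT, as did 3 of 15 alternatives in all. In vehicle relative to Ctrl it was -0.28 with an SE of 0.09 and an adjusted p of 0.19 (edgeR), which does not pass. The CORT and the vehicle comparisons share the vehicle libraries.

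Ptgr2 reduces keto prostaglandins as well. It stood at 68.54, 71.65 and 69.82 CPM in the Ctrl libraries and 78.06, 81.34 and 80.41 in the stress libraries, against 80.42, 79.03 and 70.56 in the vehicle libraries and 83.76, 83.2 and 78.18 in the CORT libraries. All stress libraries were above all Ctrl libraries, with a log2 fold change of 0.19 and an SE of 0.08 that edgeR did not call, while vehicle and CORT overlapped (log2 fold change 0.09, SE 0.08).

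Slco2a1, the uptake transporter, was low in all groups and spread within them. It ranged from 6.316 to 12.74 CPM in the Ctrl libraries and 6.344 to 15.3 in the stress libraries, and from 9.136 to 10.1 in the vehicle libraries and 6.469 to 9.474 in the CORT libraries, so the groups of each comparison overlapped. Its log2 fold change was 0.08 with an SE of 0.34 in stress, and -0.29 without stress 4+5+6. It was -0.31 with an SE of 0.19 in CORT.

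Both cyclooxygenases and the synthase Ptges were at or near 0. Ptgs2, the inducible cyclooxygenase, had 0 counts in all 12 libraries. Ptgs1, the constitutive one, had 13 counts in Ctrl 1, 4 in Ctrl 3, 7 in vehicle 6, 5 in CORT 2 and 0 in the other libraries. Ptges, the inducible PGE2 synthase, had 4 counts in each stress library, 9 in vehicle 3 and 0 in the others. A pair of reads makes up to 4 counts here, so most of these values amount to few read pairs. A count of 0 allows up to 3 read pairs, taken as 12 counts, or 0.1793 CPM in the deepest library and 0.7464 CPM in the shallowest, for counting error only. None of these 3 genes was tested and no fold is given.

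Ptges2, a second PGE2 synthase, was measured in every library. It stood at 49.94, 54.43 and 48.05 CPM in the Ctrl libraries and 43.66, 50.4 and 52.53 in the stress libraries, against 51.95, 58.95 and 63.14 in the vehicle libraries and 49.45, 54.82 and 54.3 in the CORT libraries. The groups overlapped in all 3 comparisons. The log2 fold change was -0.06 with an SE of 0.11 in stress and -0.14 with an SE of 0.09 in CORT.

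Ptger4 encodes the PGE2 receptor EP4, which raises cyclic AMP. It stood at 22.92, 24.1 and 23.84 CPM in the Ctrl libraries and 23.7, 23.35 and 19.74 in the stress libraries, against 24.84, 25.26 and 33.85 in the vehicle libraries and 18.39, 20.5 and 18.99 in the CORT libraries. All CORT libraries were below all vehicle libraries and also below every Ctrl library, and vehicle 6 stood apart above its group. The log2 fold change in CORT relative to vehicle was -0.54 with an SE of 0.15, and -0.38 without vehicle 6. It was not called by edgeR, while DESeq2 called it lower, as did 7 of 15 alternatives in all. In stress it was -0.08 with an SE of 0.13, and in vehicle relative to Ctrl 0.25 with an SE of 0.15 and an adjusted p of 0.6 (edgeR). Ptger4 overlaps Ttc33 on the other strand (mean 20.1 CPM), with 82 of 6648 exon bases shared in the GENCODE annotation, and since strand was not stated for the counting its level is uncertain to that extent. Ttc33 itself had a log2 fold change of -0.20 in CORT (SE 0.15, adjusted p = 0.487, edgeR).

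**Figure D3:**
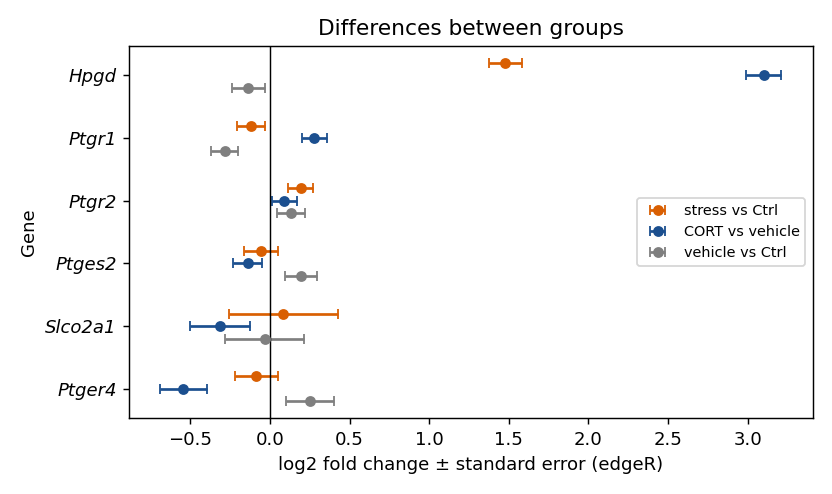
Log2 fold changes of the 6 tested genes (horizontal axis) with their standard errors from edgeR, for stress relative to Ctrl, CORT relative to vehicle and vehicle relative to Ctrl, 3 libraries a group. Hpgd lies at 1.48 and 3.10 in the stress and CORT comparisons, and the other 5 genes lie between -0.54 and 0.28 in all 3.

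By groups that do not overlap, 2 of the 6 tested genes (Hpgd and Ptgr2) had all stress libraries above Ctrl and 0 had all below, against 10.2% and 10.2% of all genes tested. In CORT, 2 of 6 (Hpgd and Ptgr1) were above vehicle in all libraries, against 14.3%, and 1 of 6 (Ptger4) was below, against 14.4%. In vehicle relative to Ctrl, 1 of 6 (Ptger4) was above, against 8.17%, and 1 of 6 (Ptgr1) was below, against 8.15%. None of the 6 was called in the vehicle comparison by edgeR, which called 0.447% of all genes higher and 0.352% lower. DESeq2 called none of the 6 either, and by edgeR 1 was at an unadjusted p under 0.05. No share over all genes is given for these.

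A list of 31 other genes of prostaglandin and leukotriene metabolism places the 9 in their pathway. This list too was made with earlier results of these data known, which limits what its calls can show. Of its genes, 18 were tested in stress, 20 in CORT and 17 in vehicle. None was called in stress by edgeR (1 at an unadjusted p under 0.05) or by DESeq2. In CORT 1 of 20 was called lower by edgeR, against 4.5% of all genes tested, and 0 higher. At an unadjusted p under 0.05, 4 were lower and 0 higher. The 4.5% does not apply to that count: over all genes tested in CORT, an edgeR p of 0.0459 stood at place 3297 of 14656, in either direction. In vehicle relative to Ctrl 0 were called by edgeR (2 at an unadjusted p under 0.05) or by DESeq2. The median log2 fold change over the genes tested was -0.06 in stress, -0.14 in CORT and 0.0036 in vehicle, against -0.0028, 0.01 and 0.0019 over all genes.

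The gene called lower in CORT was Pla2g5, a secreted phospholipase that frees fatty acids such as arachidonic acid. It stood at 71.6, 50.6 and 44.0 CPM in the Ctrl libraries and 46.1, 88.3 and 33.5 in the stress libraries, against 70.9, 55.5 and 80.6 in the vehicle libraries and 32.0, 26.3 and 31.0 in the CORT libraries. Every CORT library was below every vehicle and Ctrl library, while the stress libraries spread across the Ctrl range and beyond it on both sides. Pla2g5 was lower in CORT, with a log2 fold change of -1.22, an SE of 0.14 and an adjusted p of 0.00121 (edgeR). Since the list was made with earlier results known, this p is read with that limit. In stress the log2 fold change was 0.01 with an SE of 0.31 and an adjusted p of 0.992, and -0.48 without stress 3. The difference between both responses, 1.23 with an SE of 0.39, did not pass (adjusted p = 0.202, edgeR). No other gene of the list passed that test of the difference, which 0.388% of all genes did. Pla2g5 overlaps Pla2g2a on the other strand with 0 exon bases shared.

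**Figure D4:**
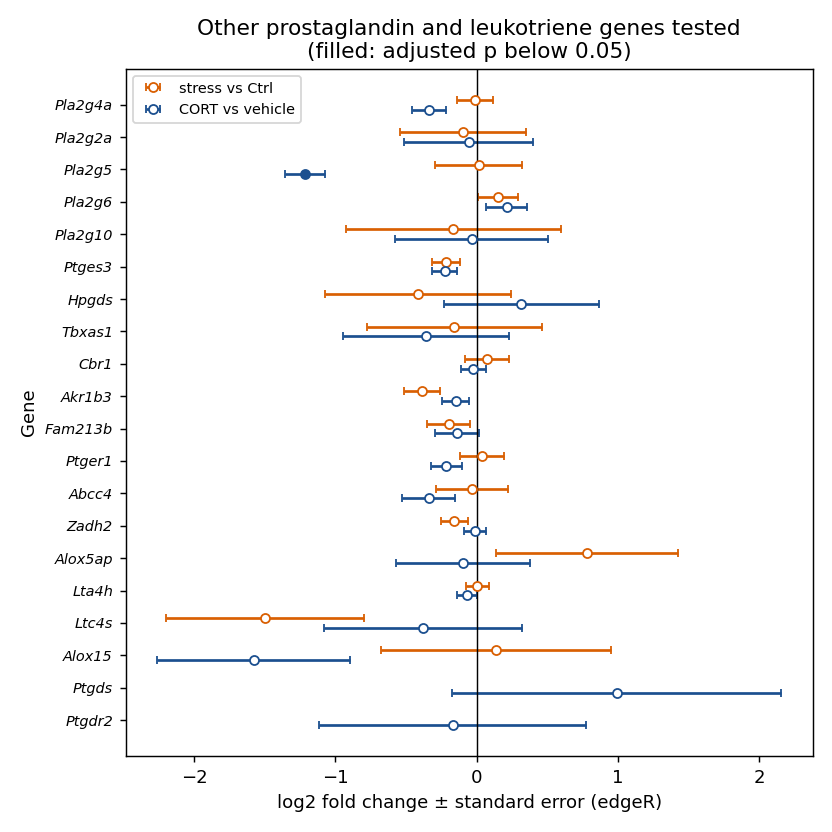
Log2 fold changes with standard errors (edgeR) of the other prostaglandin and leukotriene genes with enough counts, for stress relative to Ctrl (18 genes) and CORT relative to vehicle (20 genes); filled points passed an adjusted p of 0.05. The filled point is Pla2g5 in CORT at -1.22.

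By level, the highest of the list were Ptges3, a co-chaperone also known as a cytosolic PGE2 synthase, and the leukotriene A4 hydrolase Lta4h, at medians of 93.5 and 91.8 FPKM over the 12 libraries. The reductases Cbr1 and Akr1b3, which can act on prostaglandins, stood at 48.6 and 40.1 FPKM, and the cytosolic phospholipase Pla2g4a, the main enzyme that frees arachidonic acid for prostaglandins, at 24.8 FPKM. Zadh2, another reductase of keto prostaglandins, stood at 18.9 FPKM. Of the receptors, Ptger1 was tested with the list, but its counts are uncertain and its level is not given. The receptors Ptger2, Ptgfr and Ptgir had 0 counts in all libraries, and Ptger3, Ptgdr and Tbxa2r had at most 20 counts in any.

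The 5 genes whose levels followed Hpgd most closely over the 12 libraries were found among 14414 genes by the root mean square difference of centred log2 CPM, for which the median over all genes was 1.29. They were Herpud1, a protein of endoplasmic reticulum degradation, at 0.36, Tsc22d3, the glucocorticoid-induced leucine zipper, at 0.39, the acute-phase gene Crp at 0.40, the p53 target Trp53inp1 at 0.42 and the channel-like gene Tmc7 at 0.42. Their log2 fold changes in stress and in CORT were 1.92 and 2.79 for Herpud1, beside 1.48 and 3.10 for Hpgd. They were 1.54 and 2.27 for Tsc22d3, and 1.87 and 3.83 for Trp53inp1. For Crp they were 1.225 (SE 0.41) and 2.727 (SE 0.23), and for Tmc7 0.996 (SE 0.22) and 2.239 (SE 0.16). Crp was at a low level, with 1.68 ± 0.40 CPM in vehicle and 11.2 ± 1.23 in CORT (SD, n = 3). These genes were picked for their likeness to Hpgd in the same libraries, so their values are a description. A gene that did not change at all would score the spread of Hpgd itself. The median over all genes therefore depends on the size of the Hpgd differences.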

How the data were processed

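Per the submitters' processing notes, reads were aligned to mm10 with HISAT2 2.2.1 and quantified with StringTie 2.2.1; the study's methods name featureCounts for counting, so the sources differ. The authors deposited a table per library with the coverage signal, FPKM and TPM per gene, and a table of estimated counts. In the libraries' own coverage, a median of 75 bases stood behind 1 count, so that a read pair makes up to 4 counts and counts are not independent molecules. Of the value columns, 0 had no sample.

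The members and gene lists were chosen with earlier results of these data known. Named were the 9 members, genes of the list with an adjusted p under 0.05 in any comparison (the others by level only), the 5 genes most like Hpgd, and genes overlapping a member. Estimated counts, rounded, were filtered (filterByExpr), scaled by TMM and tested in edgeR 4.0.16 (quasi-likelihood, Benjamini-Hochberg over all genes), with the 6 libraries of each comparison. Alternatives used DESeq2 1.42.0 and limma 3.58.1 on FPKM. The procedure was tested on simulated data. Depth and floors are given in the report. TPM was not tested. A result on a further gene is not reported here.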

Additional observations from a re-analysis of the deposited data

How the results depend on the processing

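Hpgd had log2 fold changes of 1.40 to 1.55 in stress and 2.96 to 3.20 in CORT over 15 alternatives each. Pla2g5 in CORT stayed at -1.35 to -1.09 with adjusted p up to 0.0272. The counts of members called in CORT depended on the processing. With DESeq2, with at least 10 counts in every library, and with all 12 libraries in 1 fit, 2 members were called higher (Hpgd and Ptgr1) and 1 lower (Ptger4). With limma on log2(FPKM + 1), with limma on log2(FPKM + 0.1) and with counts thinned to the smallest library, chosen after seeing the data, 1 member was called lower (Ptger4). Leaving out each library in turn gave 0 to 1 members called lower in CORT (1 without vehicle 3), 1 to 2 other genes of the list called lower in CORT (2 without CORT 2), and 0 to 1 called lower in stress (1 without stress 3). No share over all genes is given for these alternatives. The cause was not tested. No paired analysis was possible because the groups compared share fewer than 2 replicate numbers. Slco2a1 in stress ranged from -0.29 without stress 4+5+6 to 0.35 without stress 1+2, and in CORT it was -0.32 with thinned counts against -0.31. For Ptgs1, Ptgs2 and Ptges, depth allows no more than the floors given above.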

Other observations

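The tested genes nearest to Hpgd on chromosome 8 were Spcs3, which ends 1764553 bases before it, and Cep44, which starts 210475 bases after it. Spcs3, a subunit of the signal peptidase, had log2 fold changes of -0.07 in stress (adjusted p = 0.757) and 0.11 in CORT (adjusted p = 0.447). Cep44, a centrosomal protein, had means of 13.3 CPM in Ctrl and 20.4 in stress, with a log2 fold change of 0.62, an SE of 0.15 and an adjusted p of 0.0808, and of 0.28 in CORT with an adjusted p of 0.236 (edgeR). Neither passed the test in either comparison.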
